A study of Mus musculus with 2 samples.

Results

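The miR-290 and miR-302/miR-367 clusters are the microRNAs (miRNAs) best known from pluripotent cells, and they were followed here in microvesicles (MVs) released by mouse mesenchymal stem cells (MSCs). Members were taken by name, as every listed mouse miRNA named miR-290 to miR-295, miR-302 or miR-367, whatever its letter or arm. This gave 16 of the 831 entries, of which 11 belong to the miR-290 cluster and 5 to the miR-302/miR-367 cluster, from 10 hairpins. The rule uses names alone. No entry of miR-295 or miR-367 was among them, and those miRNAs were not analysed here.

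The MSCs came from bone marrow of 4-week-old male C57BL/6 mice and were used at the third passage. Both groups were grown for 48 h in DMEM/F12 with fetal bovine serum and penicillin/streptomycin, and the EPO-MV cultures also received 100 IU/ml erythropoietin (EPO), which the MSC-MV cultures did not. The MVs were pelleted from the culture supernatant by ultracentrifugation, and the RNA of each group was read on 1 miRCURY LNA Array, whose capture probes contain locked nucleic acids that bind short RNAs tightly. The values used here are those of 1 array per group, and whether other arrays were run, and how the listed miRNAs were selected, was not settled from the sources used here. With 1 array per group there is no replicate error, no test was possible, and EPO cannot be told apart from the array itself as the source of a difference.

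In the mouse embryo and in embryonic stem cells, the miR-290 cluster is transcribed as 1 primary RNA that holds a row of hairpins, and the miR-302/miR-367 cluster is used in the same way in the epiblast. The -3p arms of most of these hairpins carry a common seed, the short stretch near the 5′ end through which a miRNA pairs with its targets. Through this seed they repress inhibitors of the cell cycle such as Cdkn1a and Lats2, and the miR-302 -3p miRNAs also repress the TGF-β receptor Tgfbr2. In most somatic cells, MSCs included, both clusters are largely silent, and miRNAs of the let-7 family, which have opposing targets, are abundant.

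Mature sequences of 14 of the 16 members were found in RefSeq (GRCm38.p6), 13 by miRNA name and miR-292-5p by its gene symbol and arm. The -3p arms are shown first, because the seed that defines both clusters lies in them. Each is written 5′ to 3′ with the seed, bases 2 to 8, in capitals.
miR-290a-3p: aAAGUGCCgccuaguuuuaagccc
miR-291a-3p: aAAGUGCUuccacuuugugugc
miR-294-3p: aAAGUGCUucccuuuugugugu
miR-302d-3p: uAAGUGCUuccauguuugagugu
miR-291b-3p: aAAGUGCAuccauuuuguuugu
miR-302c-3p: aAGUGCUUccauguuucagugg
miR-293-3p: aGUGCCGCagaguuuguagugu

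Of these 7 sequences, 5 had AAGUGC at bases 2 to 7, and 3 of the 5 (miR-291a-3p, miR-294-3p and miR-302d-3p) also shared base 8. The mature miR-302c-3p starts 1 base later than miR-302d-3p, so that the same letters are shifted in its seed, and 20 of the 22 overlapping bases were the same in the pair. The miR-291a-3p and miR-294-3p sequences had 19 of 22 bases in common. The sequences of the probes are not given in the sources used here. Signal shared between the probes of such similar pairs was not separable in these values, and its part in the results was not tested.

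The -5p arms are shown for the miRNAs with the highest ratios (miR-302b-5p and miR-302d-5p) and for the -5p arms of the miR-290 cluster with the seed start CUCAAA, for contrast with their -3p arms.
miR-302b-5p: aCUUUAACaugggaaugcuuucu
miR-302d-5p: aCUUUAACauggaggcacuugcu
miR-290a-5p: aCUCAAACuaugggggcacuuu
miR-292-5p: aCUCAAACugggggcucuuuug
miR-294-5p: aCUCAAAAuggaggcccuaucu

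The miR-302b-5p and miR-302d-5p sequences share the whole seed CUUUAAC and had 17 of 23 bases in common, the differences lying in the 3′ part. The seed CUCAAAC was shared by miR-290a-5p and miR-292-5p. The remaining pair of -5p arms, miR-291a-5p and miR-291b-5p, had the seed AUCAAAG and 20 of 22 bases in common. In RefSeq the miR-302 hairpins lie on chromosome 3 within Larp7 in the order Mir302b, Mir302c, Mir302a, Mir302d, followed by Mir367. The miR-290 hairpins lie on chromosome 7, with Mir290a, Mir291a, Mir292, Mir291b, Mir293, Mir294 and Mir295 following each other on the plus strand. Ordered by start, the minus-strand hairpin Mir290b comes after Mir290a and Mir292b after Mir292, and neither was analysed here. All printed sequences are on the plus strand.

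The deposited value is a normalized intensity, and on each array it is a whole multiple of the smallest value (a step). An intensity of 1 equals 471 steps on the EPO-MV array and 447 steps on the MSC-MV array. Pairs of steps are written below as EPO-MV against MSC-MV. Steps are taken as proportional to the intensity before normalization, since the normalization factor of the array cancels in them, and their worth in scanner units is not given in the sources used here, while the ratio, EPO-MV over MSC-MV, is taken from the normalized intensities. As a result, equal steps on both arrays give a ratio of 0.949. A miRNA is called higher at a ratio of at least 1.5 and lower at a ratio of at most the inverse of 1.5, after the fold change filter of the study. Probes differ in how brightly they report, so a brighter miRNA has more signal on the array but is not taken as more abundant.

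Of the 16 members, 7 were called higher in EPO-MVs and 0 were called lower. Over all 831 miRNAs, 25.4% were called in either direction, 17.8% were higher and 7.58% were lower. The 7 members were the -3p arms of miR-290a, miR-291b, miR-292, miR-293 and miR-294 and the -5p arms of miR-302b and miR-302d. The median log2 ratio was 0.11 over the members and 0.05 over all miRNAs, and 11 members (68.8%) lay above a ratio of 1, against 56.1% of all miRNAs. The member entries held 0.246% of the summed intensity of the EPO-MV array and 0.206% of that of the MSC-MV array.

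**Figure D1:**
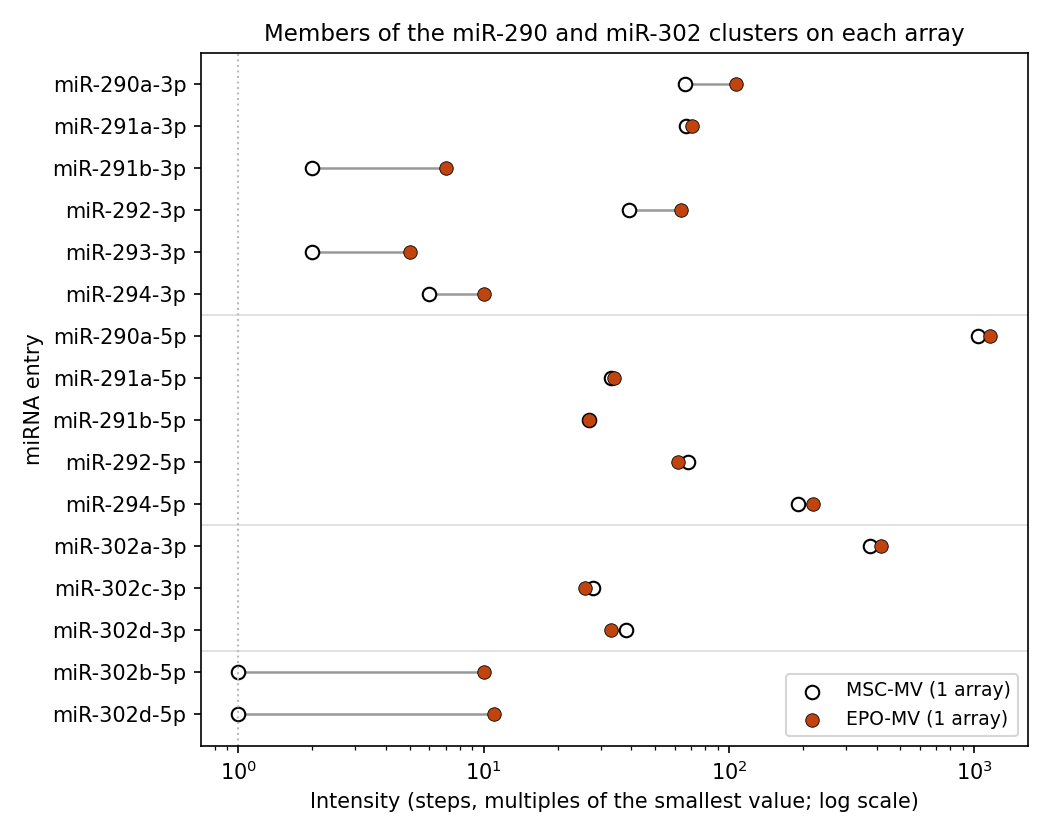
Intensity of each of the 16 members in steps (multiples of the smallest value of the array) on a log scale, on the EPO-MV array (filled) and the MSC-MV array (open), with grey lines joining the 2 values of a miRNA and a dotted line at 1 step, the smallest value. The widest gaps are those of miR-302b-5p (10 and 1 steps) and miR-302d-5p (11 and 1 steps), and the brightest member, miR-290a-5p, has 1159 and 1033 steps.

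The -3p arms of the miR-290 cluster, which carry the pluripotency seed in most cases, had ratios from 1.01 to 3.32, and 5 of the 6 were called higher, beside 18.9% of all 349 -3p entries. Of the 5, 3 lay in the dimmest of 4 intensity groups, where 46.2% of all miRNAs were called higher. With quantile normalization and with lowess, 1 of the 6 (miR-291b-3p) was called. The entry mmu-miR-290a-3p had 107 against 66 steps, a ratio of 1.54. For mmu-miR-292-3p the values were 64 against 39 steps, a ratio of 1.56. These 2 entries passed 1.5-fold by a small margin and were the only called members with at least 30 steps on both arrays.

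The other called -3p arms of this cluster were close to the smallest value of the arrays. The miRNA miR-294-3p, one of the most abundant miRNAs of mouse embryonic stem cells, had 10 against 6 steps (ratio 1.58). For miR-291b-3p the values were 7 against 2 steps (ratio 3.32), and for miR-293-3p they were 5 against 2 steps (ratio 2.37). At such levels the coarseness of the values matters by itself. Moving each value by 0.5 steps either way spans 1.39 to 1.81 for miR-294-3p, 2.47 to 4.75 for miR-291b-3p and 1.71 to 3.48 for miR-293-3p, which covers the resolution only and not the error of an array. Rescaling moved the ratios beyond these spans, to 1.87 with quantile normalization and 1.77 with lowess for miR-291b-3p, and to 1.00 and 1.21 for miR-293-3p.

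The sixth -3p arm, miR-291a-3p, has the same seed as miR-294-3p, and its values were nearly equal, with 71 against 67 steps (ratio 1.01). With the seed AAGUGCU, miR-294-3p had a ratio of 1.58, miR-291a-3p of 1.01 and miR-302d-3p of 0.824. The first of these, at 10 against 6 steps, came to 1.05 with quantile normalization and 1.03 with lowess, where miR-291a-3p had 0.895 and 0.921. Of the 5 entries of the whole array whose matched sequence has AAGUGC at bases 2 to 7, all of them members, 3 were called higher and 0 lower, beside 17.8% and 7.58% of all miRNAs. Of these 3, miR-291b-3p and miR-294-3p are in the dimmest intensity group. The members miR-292-3p and miR-302a-3p, whose sequences were not matched, are not in this count.

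Of the 5 -5p arms of the miR-290 cluster, 0 were called, beside 24.9% of all 349 -5p entries, and their ratios ran from 0.865 to 1.09. They lie in the second, the third and the brightest of the 4 intensity groups, where 22.1%, 9.66% and 8.65% of all miRNAs were called. The brightest member, mmu-miR-290a-5p, had 1159 against 1033 steps (ratio 1.06). For miR-294-5p the values were 221 against 192 steps (ratio 1.09). The miR-292-5p entry, with the seed of miR-290a-5p, was the lowest of the arms, with 62 against 68 steps (ratio 0.865). For miR-291a-5p the arrays gave 34 against 33 steps (ratio 0.978), and for miR-291b-5p they gave 27 steps each (ratio 0.949). The last ratio is that of the normalization factors alone.

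In the miR-302/miR-367 cluster the called members were -5p arms at the floor of the MSC-MV array. The entry mmu-miR-302b-5p stood among the highest ratios. The study also followed it by RT-PCR and reported it as up-regulated in EPO-MVs, with significance stated for other miRNAs and not for this one. On the array it had 10 steps against 1 step (ratio 9.49). The -5p arm of its neighbour miR-302d had 11 steps against 1 step (ratio 10.4). Both ratios rest on an MSC-MV value at the smallest step of that array. A shift of 0.5 steps either way spans 6.01 to 19.9 for miR-302b-5p and 6.64 to 21.8 for miR-302d-5p. In all, 14 miRNAs were at 1 step in MSC-MVs, of which 13 were called higher. At that floor the ratio cannot fall below 0.949, so no call of lower was possible and this count is largely fixed by the selection. The EPO-MV values of these 14 ran from 1 to 27 steps, with a median of 13. On the EPO-MV array itself, 3 of all miRNAs were at 1 step.

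Of the 3 -3p arms of this cluster, 0 were called, beside 27.5% of all -3p entries and 22.1% and 9.66% of all miRNAs in the second and the third of the 4 intensity groups, which hold them. The entry mmu-miR-302a-3p, with a signal well above the smallest step, had 418 against 377 steps (ratio 1.05). For miR-302c-3p the values were 26 against 28 steps (ratio 0.881), and for miR-302d-3p they were 33 against 38 steps (ratio 0.824), the lowest ratio of the 16 members. The miR-302 arms outside the dimmest part of the array thus stayed within 1.5-fold of their MSC-MV values.

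**Figure D2:**
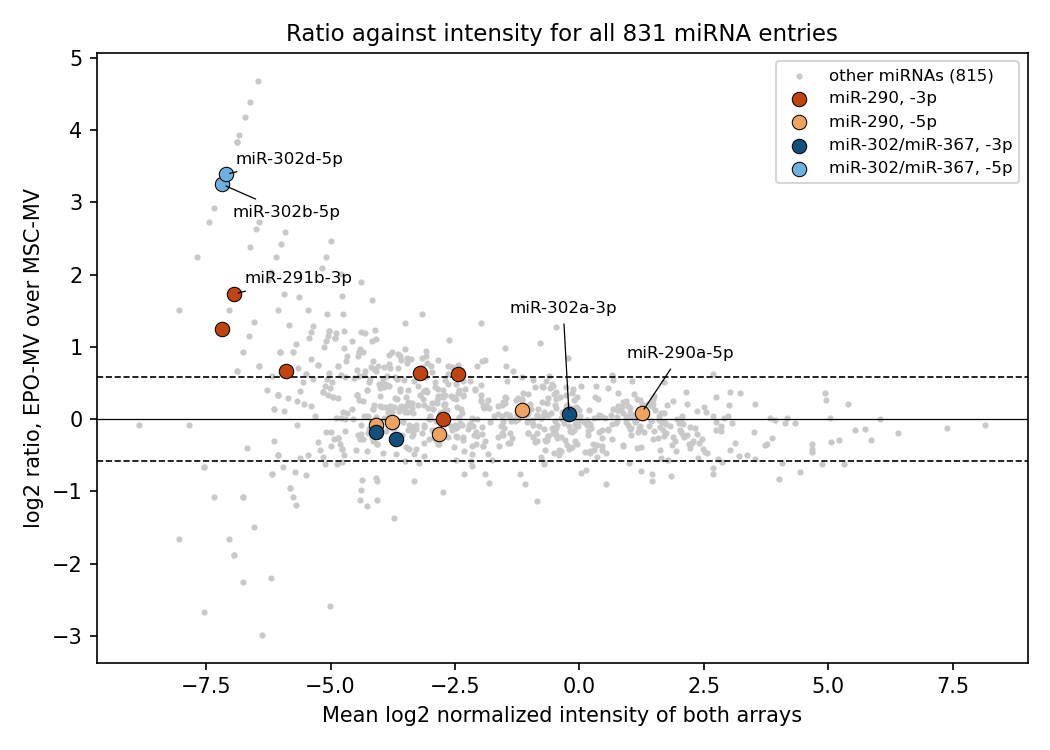
The log2 ratio (EPO-MV over MSC-MV) against the mean log2 normalized intensity of both arrays for all 831 miRNAs (grey, other miRNAs), with the members coloured by cluster and arm and dashed lines at 1.5-fold in either direction. Members with a log2 ratio above 1 (miR-302d-5p, miR-302b-5p, miR-291b-3p and miR-293-3p) lie at the dim end, where grey points also spread most, and the 3 brightest members lie near 0.

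The calls went with low intensity. All miRNAs were ranked by mean log2 intensity and cut into 4 intensity groups, 3 of 208 miRNAs and 1 of 207. In the dimmest of them, 46.2% of 208 miRNAs were called higher, and 5 of the 5 members in it were (miR-291b-3p, miR-293-3p, miR-294-3p, miR-302b-5p and miR-302d-5p). In the second group, 18.8% were called higher, and 2 of 8 members were (miR-290a-3p and miR-292-3p). The other 3 members, miR-290a-5p, miR-294-5p and miR-302a-3p, were in the brighter groups with ratios from 1.05 to 1.09. Where both arrays gave 30 steps or more, 10.8% of 573 miRNAs were called in either direction and 5.93% were called higher, against 2 of 9 members, both higher. The part of low intensity in the member ratios was not tested.

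Both arms were listed for 6 of the hairpins, which allows the ratio of 1 arm to be set beside that of the other arm from the same precursor. The -3p ratio exceeded the -5p ratio in 5 of the 6, namely in every such hairpin of the miR-290 cluster, and in 53.4% of the 223 hairpins of the array with both arms listed. The size of the difference ran over a wide range. As the log2 ratio of -5p minus that of -3p it was -0.04 for miR-291a, -0.53 for miR-290a, -0.53 for miR-294, -0.85 for miR-292 and -1.81 for miR-291b. The median size over the 223 hairpins, without regard to sign, was 0.44. So with the deposited values miR-291a lay below the size found in most hairpins, miR-290a and miR-294 lay near it, and miR-292 and miR-291b lay above it. Among these 5, rescaling moved miR-294, whose -3p arm had 10 against 6 steps, and miR-291b the most. They came to -0.11 and -1.29 with quantile normalization and to 0.07 and -1.18 with lowess.

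The arms of miR-302d, the only hairpin of its cluster with both arms listed, differed the other way, by 3.66 on the log2 scale. This value carries the 1 step of miR-302d-5p in MSC-MVs, and its size rests on that floor. The difference between arms in miR-291b likewise carries the 2 steps of its -3p arm. For miR-292, both arms had at least 39 steps on both arrays, and its -3p arm was called higher while its -5p arm was at 0.865.

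**Figure D3:**
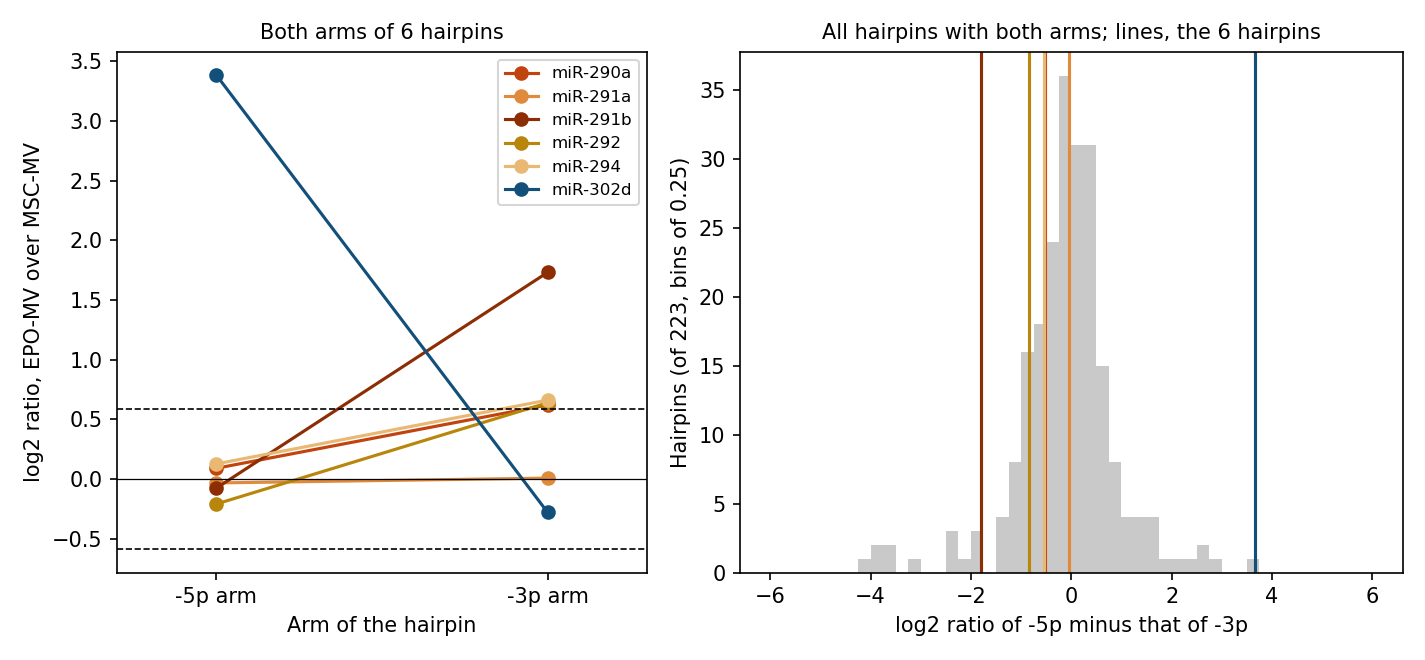
Left, log2 ratio (EPO-MV over MSC-MV) for the -5p and the -3p arm of the 6 hairpins with both arms listed, a line for each hairpin and dashed lines at 1.5-fold. Right, histogram of the log2 ratio of -5p minus that of -3p over 223 hairpins in bins of 0.25, with coloured lines at the 6 hairpins; miR-302d stands at 3.66, and the 5 hairpins of the miR-290 cluster lie between -1.81 and -0.04.

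How the arrays were brought to a common scale decided several calls. After quantile normalization and after removal of the trend of the ratio with intensity by lowess, 3 of the 16 members were called higher (miR-291b-3p, miR-302b-5p and miR-302d-5p) and 0 lower, beside 11.4% and 11.1% of all miRNAs called higher. The members miR-290a-3p (1.46 and 1.43), miR-292-3p (1.39 and 1.37), miR-293-3p (1.00 and 1.21) and miR-294-3p (1.05 and 1.03) were then below 1.5-fold. Re-centring on the median of all ratios left 6 members called, since miR-290a-3p came to 1.49, beside 16.1% of all miRNAs called higher. Over the 4 rescalings (the median of all ratios, quantiles, the 75th percentile and lowess), the ratio of miR-302b-5p ran from 4.84 to 9.85 and that of miR-302d-5p from 5.39 to 10.8. The ratio of miR-291a-3p fell on either side of 1, between 0.895 and 1.04. With a pseudocount of 0.0573 added to both arrays, 0 members were called, beside 3.49% of all miRNAs called higher. Both miR-302 -5p arms were then at 1.32 and 1.35, with values below that pseudocount on both arrays, so that it shrinks their ratios by construction. The -3p ratio exceeded the -5p ratio in the 5 hairpins of the miR-290 cluster with quantile normalization and with the pseudocount. With lowess it did so in all of these but miR-294, which turned (difference 0.07). Re-centring and scaling to the 75th percentile change all ratios by the same factor, so they leave the difference between arms unchanged by construction.

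**Figure D4:**
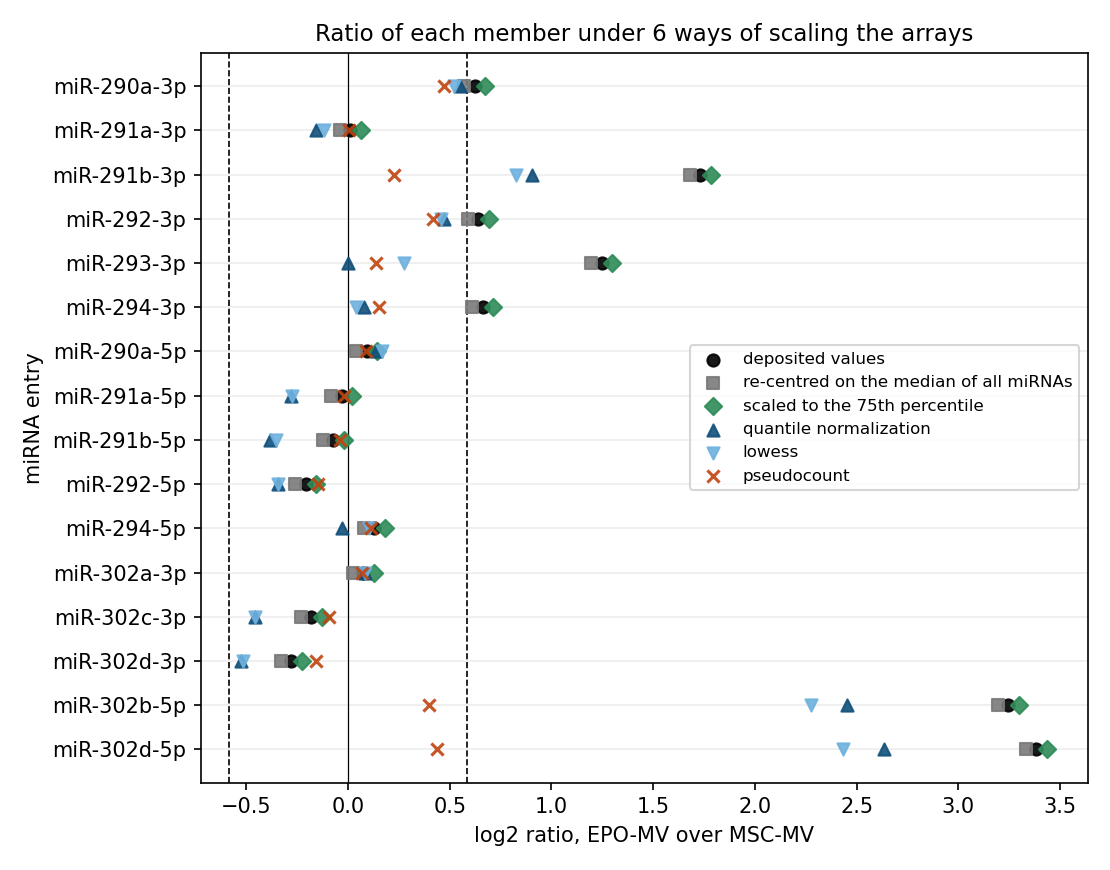
The log2 ratio (EPO-MV over MSC-MV) of each member with the deposited values and under 5 other ways of treating the arrays, with dashed lines at 1.5-fold. The miR-302b-5p and miR-302d-5p points stay above 1.5-fold except with the pseudocount, whereas miR-290a-3p (ratios from 1.39 to 1.60) and miR-292-3p (1.34 to 1.62) lie on both sides of the line.

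The source of the MVs was checked against miRNA markers. All 6 stromal markers (miR-21a-5p, miR-143-3p, the entry of miR-145a-5p, the entry of miR-199a-3p, miR-199a-5p and miR-214-3p) were bright, with EPO-MV values of 3313 to 37150 steps and MSC-MV values of 4228 to 40369 steps. Of these, 1 was called lower (miR-143-3p, ratio 0.648) and the ratio was below 1 for the other 5. All 6 lie in the brightest of the 4 intensity groups, where 7.69% of all miRNAs were called lower and 37.0% had a ratio above 1. Of the 6 blood cell markers, 4 lie in the brightest and 2 in the third intensity group. The 6 had EPO-MV values of 160 to 20714 steps and MSC-MV values of 87 to 21839 steps. Among them miR-142-3p had 20714 against 21839 steps (ratio 0.900), miR-142-5p, miR-150-5p and miR-451a had ratios of 0.921, 1.36 and 0.902, miR-223-3p had 6415 against 9245 steps (ratio 0.659, called lower), and miR-144-3p had 160 against 87 steps (ratio 1.75, called higher). These calls, 1 in each direction among 6, stand beside 17.8% higher and 7.58% lower over all miRNAs. The part of stromal and blood cell RNA in the values of the members was not tested. The medium held normal fetal bovine serum, which the paper lists as a limitation, and the part of serum RNA was not tested either.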

How the data were processed

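RNA of 1 EPO-MV and 1 MSC-MV preparation was labelled and hybridized to the miRCURY LNA Array. As the methods state, the authors scanned it (Axon GenePix), averaged replicate spots and applied median normalization with a factor from miRNAs that reached an intensity of 30 in every sample. The deposited values are these normalized intensities, not log-transformed. The channel read and any background correction are not given in the sources used here. The number of arrays limits the precision.

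Values were turned into whole steps (tolerance 0.0001 of a step). Ratios were computed with no pseudocount and no filter, and a threshold of 1.5 was used, with no test. Percentages of called miRNAs refer to all entries, or to the smaller set named beside them. All members are named. The members, the seed and marker lists and the settings were chosen with earlier results of these data known. Alternatives were 9 settings fixed at the outset and 1 added later (at least 60 steps on both arrays). Lowess used a span of 0.4 and 3 iterations, and the pseudocount was the 25th percentile of all values. Sequences came from RefSeq (GRCm38.p6) and were matched for 686 of 831 entries. Sequence pairs were compared without gaps at offsets of up to 2 bases. The counting was tested on simulated data, made from the MSC-MV values by fixed fold changes without noise. That checks the code and says nothing about values near the floor. Calculations used Python 3.11.15, pandas 2.3.3, numpy 2.4.6, statsmodels 0.14.6 and matplotlib 3.10.9.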

Additional observations from a re-analysis of the deposited data

How the results depend on the processing

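The number of called members was 7 with the deposited values, all higher in EPO-MVs. The share of all miRNAs called in either direction at the same setting stands after each count (25.4% with the deposited values). The number was 4 at a threshold of 2 (10.6%), 8 at 1.2 (55.4%), 2 of 9 where both arrays gave 30 steps or more (10.8%), 1 of 6 at 60 steps or more, chosen after the values were seen (8.64%), 0 of 3 above the median intensity (9.16%), 6 after re-centring (24.7%), 7 with scaling to the 75th percentile (25.9%), 3 with quantile normalization (22.9%), 3 with lowess (22.6%) and 0 with the pseudocount (6.50%). Every called member was higher except 1 at 1.2 (miR-302d-3p). Of the 5 miRNAs with a matched sequence and the seed AAGUGC, 3 were called with the deposited values, 1 at a threshold of 2, 4 at 1.2, 1 of 3 with at least 30 steps, 2 after re-centring, 3 with scaling to the 75th percentile, 1 with quantile normalization, 1 with lowess and 0 with the pseudocount.

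The median log2 ratio of the members, 0.11, was 0.0735 with at least 30 steps, 0.0820 with at least 60 steps, 0.0906 above the median intensity, 0.059 after re-centring, 0.038 with quantile normalization, 0.16 with scaling to the 75th percentile, 0.0935 with lowess and 0.10 with the pseudocount. The difference between the arms of miR-294, -0.53, reversed to 0.0687 with lowess. Filters keep fewer miRNAs and the pseudocount shrinks dim ratios by construction, and the cause of the other shifts was not tested. No paired analysis was possible because each group had 1 array. Whether background was measured or subtracted is not given in the sources used here, so no member is called above or below it.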

Other observations

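A pair of seed families related to the clusters were counted alongside them. The miR-17 family has AAAGUG at bases 2 to 7, the letters of the pluripotency seed moved by 1 base, and it drives proliferation in many cell types. All 6 of its entries had at least 245 steps on both arrays, 0 were called, and their ratios ran from 0.721 to 0.877. In the intensity groups that hold them, the third and the brightest of 4, 9.66% and 8.65% of all miRNAs were called. The 3 brightest were miR-106b-5p (1946 steps in EPO-MVs and 2142 in MSC-MVs), miR-17-5p (676 and 777) and miR-106a-5p (501 and 637).

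Of the 11 entries with the let-7 seed GAGGUA, 0 were called higher and 2 were called lower, with a median log2 ratio of -0.35. Beside the let-7 family, which marks differentiated cells, they include 2 entries matched by the seed alone. These were miR-202-3p (24 and 22 steps, ratio 1.04) and miR-1961 (533 and 549 steps, ratio 0.921). Over all miRNAs 7.58% were called lower, and in the brightest intensity group, where 10 of the 11 lie, the median log2 ratio was -0.09 and 7.69% were called lower. The 3 brightest were let-7g-5p (6297 and 7184 steps, ratio 0.832), let-7d-5p (2799 and 4015 steps, ratio 0.662, called lower) and miR-98-5p (2376 and 3119 steps, ratio 0.723). The other one called lower was let-7f-5p (1282 and 2106 steps, ratio 0.578), named after its value was seen. No difference between these families and the miR-290 and miR-302/miR-367 clusters was tested.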
